A study of Mus musculus with 18 samples.

Results

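The comparison described here is the change in translational efficiency that a 3 h exposure to Rapalink-1 made in GTML medulloblastoma cells, set against the solvent DMSO. Translational efficiency is the number of ribosome-protected mRNA fragments (footprints) of a gene relative to its RNA. It was chosen by assay and treatment alone, as the 12 of 18 libraries that hold footprints and total RNA of both treatments. The groups were 3 footprint and 3 RNA libraries of cells given 50 nM Rapalink-1 for 3 h, and 3 footprint and 3 RNA libraries of cells given DMSO for 3 h. All 12 libraries came from the same mouse line, GTML, which the labels describe by its genotype as Human MYCN overexpressed. GTML stands for GLT1-TRE-MYCN/Luciferase, a mouse strain in which human MYCN is placed in hindbrain neural progenitors and medulloblastomas form, so 1 cell line stands for the tumour here. The cells grew in neurobasal medium with B27, EGF and bFGF. The labels do not say whether the 3 replicates were separate cultures, and the p-values below therefore measure the spread between these libraries, which may be technical. The remaining 6 libraries of the series, from cells given 5 nM rapamycin, are set beside the result near the end.

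Rapalink-1 is a bivalent inhibitor that joins rapamycin to a compound that fills the ATP site of the kinase mTOR. The mTOR complex mTORC1 controls protein synthesis through the S6 kinases and through the 4E-BP proteins, which hold the cap-binding protein eIF4E away from eIF4G when they are not phosphorylated. The mRNAs best known to depend on mTORC1 start with a C and a run of pyrimidines, the 5′ terminal oligopyrimidine (TOP) motif, which the protein LARP1 binds, and they encode ribosomal proteins and many translation factors.

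Total counts were 7794216 to 11023142 in Rapalink-1 footprint libraries and 7692625 to 14150068 in DMSO footprint libraries. In RNA libraries they were 11887026 to 13300292 under Rapalink-1 and 6788365 to 11210853 under DMSO. After transcript rows that share counts had been merged, 11475 genes passed the filter on low counts, of which 9787 have a symbol. Efficiency was higher under Rapalink-1 at 2230 genes (19.4%) and lower at 2252 genes (19.6%), at an adjusted p under 0.05 in edgeR's quasi-likelihood test, which makes 4482 called genes (39.1%). The replicate efficiencies of the treatments did not overlap at 5475 genes (47.7%). With TMM scaling a change of at least 1 on the log2 scale was more often a fall. By that much 411 genes (3.58%) fell and 198 genes (1.73%) rose. The middle 50% of genes lay between -0.31 and 0.38, around a median of 0.035. No spike-in is recorded, so every value is relative to the other mRNAs of the library, and fewer cells of a type and less RNA per cell cannot be told apart. With libraries scaled to their totals in place of TMM, efficiency values shift up by 0.392 at the median, and the split becomes 5494 genes higher and 829 lower. With TMM the 95% quantile was 0.864, so such a shift carries more genes past 1 and fewer past -1. Counts of list members under library totals stand beside 5494 of 11475 genes higher and 829 lower, and not beside 19.4% and 19.6%. Changes of at least 1 were not counted under library totals. Of the falls given below, those of Actb, Ccnd1, Dnmt1, Eif3a, Eif3b, Eif4a1, Etf1, Ireb2 and Sms are then no longer called. Genes were named by a rule of size and list, and the further members that show the range of a list were chosen after their values had been seen.

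Of 14 markers of neural progenitors and the cerebellar lineage, 9 were measured: Mycn, Nes, Slc1a3, Slc1a2 (the gene of GLT1), Zic1, Zic2, Pax6, Neurod1 and Mki67. Their summed share of footprints was 0.253 to 0.260% in Rapalink-1 libraries and 0.150 to 0.156% in DMSO libraries, while their share of RNA was 0.130 to 0.141% in Rapalink-1 libraries and 0.137 to 0.147% in DMSO libraries. Sox2, Sox9, Olig2, Atoh1 and Barhl1 carry no row under their symbols and were not analysed here. Of 17 markers of oligodendrocytes, microglia, blood, vessels and fibroblasts, only Itgam and Hbb-bs have a row under their symbols. The other markers were not analysed here, which does not show that those cells were absent. Together Itgam and Hbb-bs held 0.00261 to 0.00291% of Rapalink-1 footprints and 0.00522 to 0.00783% of DMSO footprints. In RNA they held 0.00988 to 0.0109% under Rapalink-1 and 0.0105 to 0.0148% under DMSO. Their efficiencies went opposite ways: Itgam fell by 1.56 ± 0.26, with 199 to 267 footprint counts under Rapalink-1 and 392 to 1015 under DMSO, and Hbb-bs had 1.03 ± 0.36, with 19 to 35 counts under Rapalink-1 and 9 to 21 under DMSO, a call that is lost without Rapalink-1 replicate 3 or DMSO replicate 1. Mycn stood at 892, 905 and 905 CPM (counts relative to the TMM-scaled library size) of footprints in Rapalink-1 replicates 1 to 3, against 701, 767 and 741 CPM in DMSO replicates. Mycn RNA was 774, 795 and 847 CPM under Rapalink-1 and 794, 783 and 814 CPM under DMSO. Its efficiency was 0.28 ± 0.071 higher (log2, SE). Reads from the human transgene that match the mouse sequence cannot be told apart from mouse Mycn in this row.

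**Figure D1:**
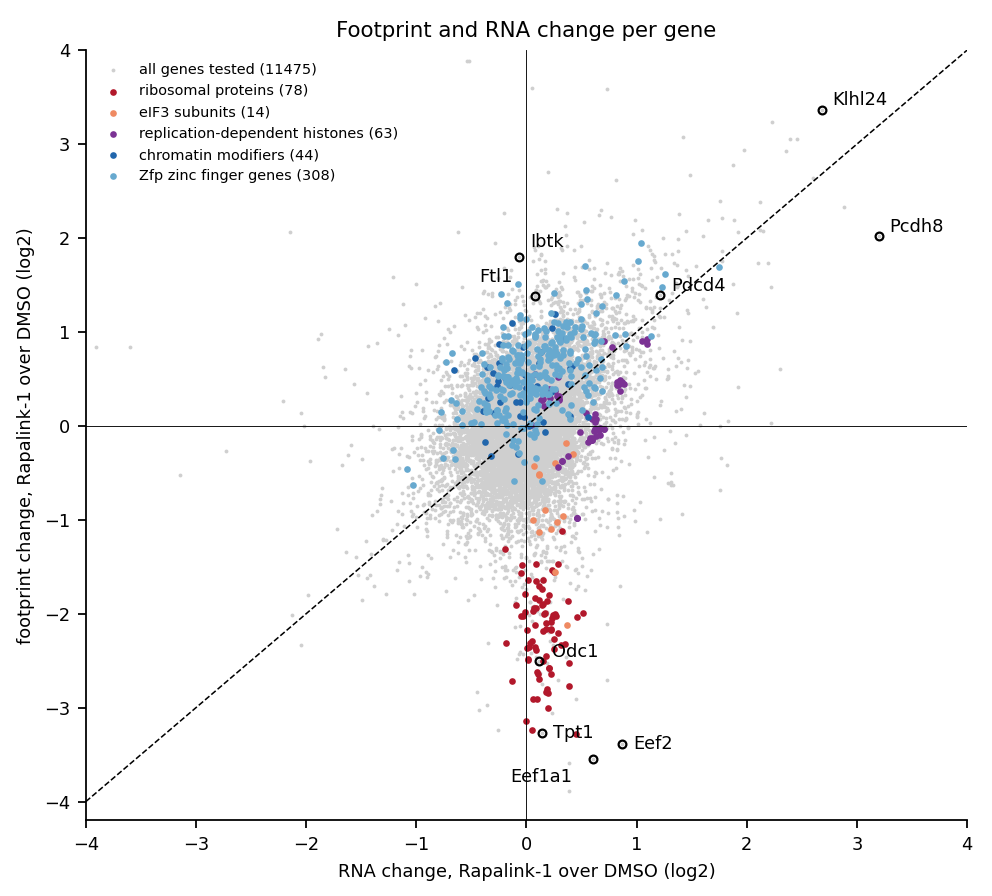
Change in RNA (x axis, log2) against change in footprints (y axis, log2), Rapalink-1 over DMSO, for the 11475 genes tested; 7 genes lie outside the axes. On the dashed diagonal efficiency does not change. The 78 ribosomal proteins with footprints lie far below it with RNA changes near 0, Eef2 and Eef1a1 lie lowest with RNA above 0, and most Zfp zinc finger genes lie above it.

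Among genes with a symbol, a mean log2 CPM of at least 4 and no overlap between replicates, the elongation factor genes Eef2 and Eef1a1 fell most. Elongation factor 2, encoded by Eef2 (chr10:81176631-81182509, GRCm38), moves the ribosome along the mRNA by a codon. Its footprints were 394, 397 and 395 CPM in Rapalink-1 replicates, against 3995, 4320 and 4127 CPM in DMSO replicates. Its RNA was 5331, 5260 and 5430 CPM in Rapalink-1 replicates and 2908, 3061 and 2818 CPM in DMSO replicates. No replicate of either treatment came near the other in either assay, and the changes ran in opposite directions: footprints fell by 3.39 ± 0.05 and RNA rose by 0.87 ± 0.046 (log2, SE), so efficiency fell by 4.26 ± 0.067, or 19.1-fold (adjusted p = 6.5e-45). Eef1a1 (chr9:78478453-78481724), which brings aminoacyl-tRNA to the ribosome, had 1409, 1358 and 1454 CPM of footprints under Rapalink-1 and 16513, 16456 and 16319 CPM under DMSO. Its RNA rose by 0.61 ± 0.041 and its efficiency fell by 4.15 ± 0.061, or 17.8-fold. These falls were not shared evenly by the machinery of elongation. The exchange factor subunits of Eef1a1 fell in the order Eef1b2 (-2.99 ± 0.074), Eef1g (-2.31 ± 0.067) and Eef1d (-1.20 ± 0.093). Of the 8 elongation factors tested 6 fell and 1 rose, beside 19.6% of all genes lower and 19.4% higher. Eif5a, which helps ribosomes through stalling sequences, rose by 0.30 ± 0.069; its footprints were 1872, 1939 and 1989 CPM under Rapalink-1 and 1720, 1846 and 1886 CPM under DMSO, so the treatments overlapped in footprints. Of the factors for mitochondrial ribosomes, Tufm, the mitochondrial counterpart of Eef1a1, fell by 0.69 ± 0.084, and the other 3 were not called.

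The starts of the mRNAs that fell and rose most are shown because the TOP motif is defined by the first bases of the mRNA. Each line gives 5 bases before and 25 bases from the annotated transcription start, in RefSeq's build GRCm38.p6, in the direction of transcription, and the sixth base is the annotated start. Capitals mark the pyrimidine run that holds the annotated start where the start is a C followed by at least 4 pyrimidines, and otherwise the longest pyrimidine run in the window. The 8 starts from Eef2 to Rpl27a belong to the largest falls, and Ibtk, Gcom1 and Zmiz1 to the largest rises, among genes with a start in the table. Rack1 and Eif3f were added after their values had been seen, as falls whose annotated start is a C in a long run.
Eef2 (chr10:81176626-81176655, plus strand): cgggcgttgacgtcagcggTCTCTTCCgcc
Eef1a1 (chr9:78481700-78481729, minus strand): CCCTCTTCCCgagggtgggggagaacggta
Rps2 (chr17:24720058-24720087, plus strand): gatctcgcgCTTCTTggagcactataaatt
Tpt1 (chr14:75845251-75845280, plus strand): acgacagTTCCgggggagccgcggacggtg
Rps27 (chr3:90213624-90213653, minus strand): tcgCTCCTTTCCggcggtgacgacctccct
Rps27rt (chr9:114982715-114982744, minus strand): ccttgCTTTCCggcggtgacgacctcccta
Rps18 (chr17:33955641-33955670, minus strand): ccgCTCTCTCTTCCacaggaggcctacacg
Rpl27a (chr7:109519190-109519219, plus strand): gCTCCTCCCTTTTCCCTTTCTgccaccgcc
Rack1 (chr11:48800355-48800384, plus strand): TCTTTCTTTTTCTCCacagggtcgtggtgg
Eif3f (chr7:108934410-108934439, plus strand): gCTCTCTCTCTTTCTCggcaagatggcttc
Ibtk (chr9:85749310-85749339, minus strand): cgcccgctctagctcaggTTTCCCCgaacc
Gcom1 (chr9:71592336-71592365, minus strand): cttctagtgtctgagCCTCCCCCgcgtagg
Zmiz1 (chr14:25459180-25459209, plus strand): ggCCCTTTggaaatagaatagccaatgtaa

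Among the 8 falls, Rps27, Rps27rt and Rps18 met that definition at the annotated start, and Rps27 and Rps27rt share reads. Rpl27a and Eef1a1 have a start that lies inside a pyrimidine run but is itself a T, as does Zmiz1 among the rises, and Eef2 has its run further downstream. Annotated starts can lie some bases from the true first base, so a missing match says only that the letters are not at that position.

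Across the genome the same rule was applied to 7895 of the 9787 tested genes with a symbol (80.7%), those found in the RefSeq promoter table. The motif searched was a C at an annotated start followed by CCCC, TTTT or any other run of 4 bases made of C and T, on the sense strand only. It was present at 230 genes (2.91%), where a gene counts if any of its annotated starts has it. Counted by start, a different unit, it was at 2.51% of all 32851 starts in the table. Of the 65 genes whose efficiency fell by 2 or more, 17 (26.2%) had it, and of the 207 genes that fell by 1 to 2, 18 (8.70%) had it. The share was 2.44% of 3519 genes between -1 and 0, 2.53% of 3989 genes between 0 and 1, and 6.96% (8 of 115) of genes at 1 or above. A mirror motif, G followed by 4 purines, was at 8.31% of all genes matched. It was at 3.08% of the genes that fell by 2 or more and at 7.83% of those at 1 or above. Not every gene with the motif fell: 74 of the 230 (32.2%) were called lower, against 21.6% of genes without it, and 57 (24.8%) higher, against 22.2%. Their median was -0.08, against 0.03 for genes without it. With ribosomal proteins left out, the 216 genes with the motif had a median of 0.03, and 27.8% of them were called lower, against 21.1% of genes without it. Among ribosomal protein genes, 14 of 59 matched genes had the motif, and their median of -2.33 lay beside -2.34 for those without it. Outside the ribosomal protein lists the largest falls with the motif were Rps27rt (-3.29 ± 0.077), a retrocopy of Rps27, then Eif3f, Rack1, Rgs10 (-2.17 ± 0.52) and Atp5g2 (-2.09 ± 0.092), a gene of the membrane ring of ATP synthase. Rps27rt shares reads with Rps27, so its value repeats that of a ribosomal protein gene. It was nevertheless counted apart from Rps27 in the shares above and kept among the 216 genes.

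**Figure D2:**
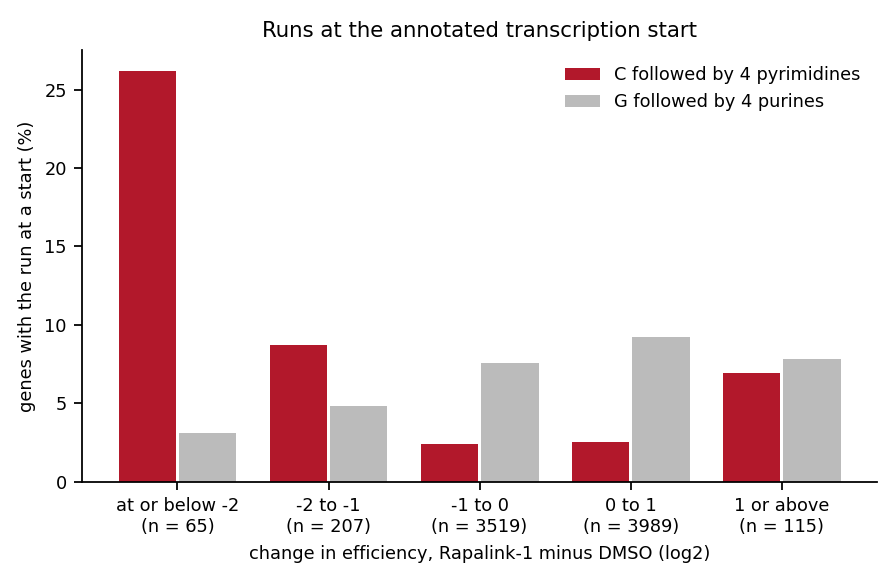
Share of genes (y axis, %) with a C followed by 4 pyrimidines (red) or a G followed by 4 purines (grey) at an annotated start, by change in efficiency (x axis, log2, Rapalink-1 minus DMSO; n is the number of genes matched). The pyrimidine share is 26.2% among genes at or below -2 and 2.44% among genes between -1 and 0.

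All ribosomal proteins with footprints fell: 46 large subunit genes and 32 small subunit genes, each list's background being 19.6% of genes lower. Rpl29 is the member of the large subunit list that was not called; it is listed at 0 in all 6 footprint libraries and has no efficiency. Within the large subunit, changes ran between -3.14 (Rpl27a) and -1.12 (Rpl38), with the middle 50% of genes between -2.51 and -1.93. Within the small subunit they ran between -3.74 (Rps2) and -1.65 (Rps29), with the middle 50% between -2.81 and -2.05. Rps2 rests on few footprints, 2.19, 1.16 and 1.2 CPM under Rapalink-1 and 17.6, 15.9 and 12.8 CPM under DMSO, and has an SE of 0.37. Next came Rps27, with 48.8, 51.0 and 49.5 CPM of footprints under Rapalink-1 and 471, 462 and 478 CPM under DMSO, at an RNA change of 0.05 ± 0.051. Rps27 and Rps27rt had counts within a ratio of 1.03 to 1.06 in all 12 libraries, as did Rps18 and its copy Gm10260 within 0.974 to 1.17, so each pair shares reads and is 1 measurement. At the other end, Rpl38 had 328, 286 and 322 CPM of footprints under Rapalink-1 and 777, 694 and 850 CPM under DMSO. Its RNA was 580, 570 and 539 CPM under Rapalink-1 and 655, 552 and 724 CPM under DMSO, with overlap, and its efficiency fell by 1.12 ± 0.14, or 2.17-fold, against 8.84-fold for Rpl27a. Genes of the stalk of the large subunit spanned much of that range: Rplp2 had -2.63 ± 0.080, Rplp0 -2.40 ± 0.072 and Rplp1 -1.52 ± 0.081. RNA of ribosomal proteins was called higher at 43 of the 79 genes and lower at 0, beside 17.5% of all genes with higher RNA. These calls were made with TMM scaling, at small medians of 0.11 (large subunit) and 0.16 (small subunit). In shares of RNA reads, taken without TMM, large subunit genes held 6.9 to 7.03% under Rapalink-1 and 6.68 to 6.93% under DMSO, with overlap. Small subunit genes held 4.55 to 4.66% under Rapalink-1 and 4.32 to 4.48% under DMSO.

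**Figure D3:**
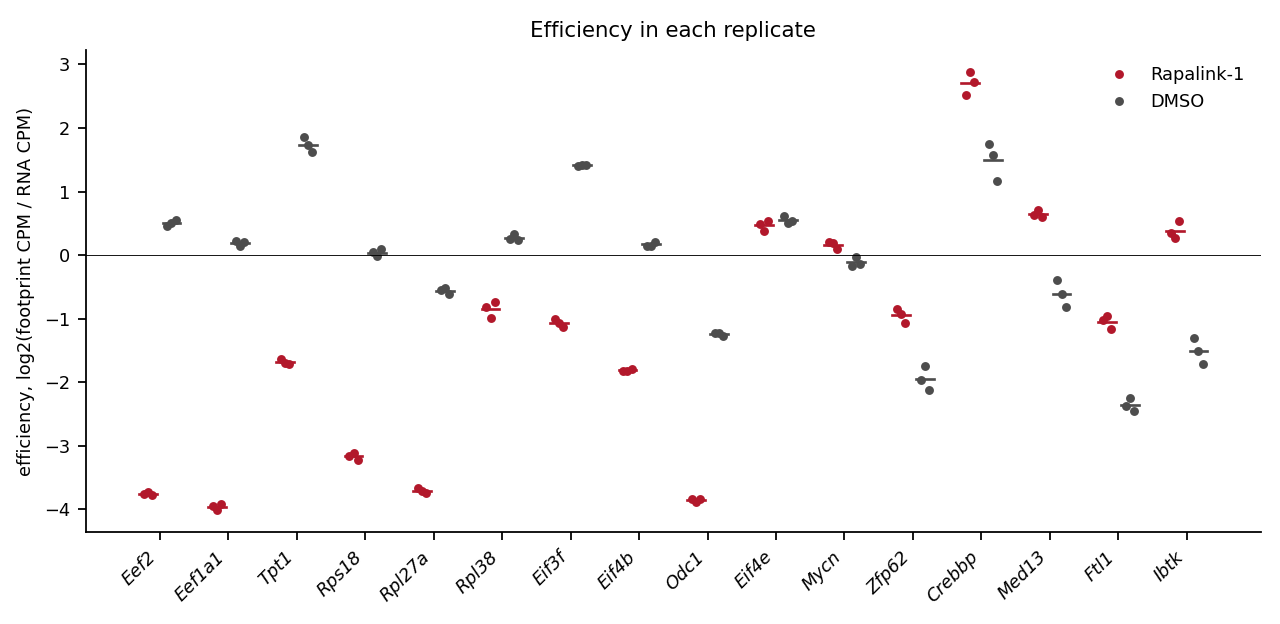
Efficiency in each replicate (y axis, log2 of footprint CPM over RNA CPM of the same treatment and replicate number) for 16 genes, Rapalink-1 in red left of DMSO in grey; points are replicates and lines their means, n = 3 each. The treatments overlap at Eif4e and at no other gene shown.

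Initiation factors divided by complex, and their counts stand beside 19.4% of all genes called higher and 19.6% lower. All 14 tested genes of eIF3, the scaffold that holds the small subunit and the mRNA during scanning, fell, with a median of -1.06 against 0.035 over all genes. Eif3j1 (-0.64) and Eif3j2 (-0.62) have near-identical values and may share reads. Eif3f fell most, by 2.49 ± 0.088: its footprints were 76.2, 78.3 and 81.7 CPM under Rapalink-1 and 329, 336 and 360 CPM under DMSO, and its RNA was 153, 165 and 178 CPM under Rapalink-1 and 125, 126 and 134 CPM under DMSO. Eif3h (-1.82), Eif3k (-1.32), Eif3i (-1.30), Eif3l (-1.30) and Eif3e (-1.24) followed, and the smallest changes of the 14 were those of the large core subunits Eif3a (-0.54) and Eif3b (-0.50); Eif3c, another core subunit, had -0.72. Around the cap, 8 of 13 genes fell and 2 rose, at a median of -0.53; with library totals 5 fell and 5 rose, at a median of -0.13. Eif4b, which stimulates the helicase eIF4A and is itself a target of S6 kinase, fell by 1.97 ± 0.069, with 388, 389 and 396 CPM of footprints under Rapalink-1 and 957, 997 and 962 CPM under DMSO. The helicases fell less, Eif4a2 by 0.96 ± 0.079 and Eif4a1 by 0.53 ± 0.064. Eif4e, the cap-binding protein, was not called, at -0.08 ± 0.078. Its replicate values overlapped at 0.49, 0.38 and 0.53 under Rapalink-1 and 0.61, 0.50 and 0.54 under DMSO, and its footprints and RNA both fell, by 0.33 ± 0.055 and 0.25 ± 0.056. The repressor gene Eif4ebp1 fell by 1.32 ± 0.12, with 24.0, 22 and 22.1 CPM of footprints under Rapalink-1 and 61.7, 64.0 and 68.6 CPM under DMSO. The scaffold family split: Eif4g1 had 0.16 ± 0.075 and was not called, while Eif4g2 rose by 0.55 ± 0.080 and Eif4g3 by 0.83 ± 0.10. Pdcd4, an inhibitor of eIF4A, was not called in efficiency (0.18 ± 0.099); its RNA rose by 1.21 ± 0.072 and its footprints by 1.39 ± 0.067.

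Of 19 other initiation factors, 9 fell (47.4%, beside 19.6% of all genes) and 4 rose (21.1%, beside 19.4%). Their median was -0.18, which becomes 0.21 with library totals, when 4 fell and 7 rose. Genes of eIF2 and its exchange factor eIF2B, which load and recycle the initiator tRNA carrier, were among the falls: Eif2s3x by 0.80 ± 0.076, Eif2b5 by 0.75 ± 0.086 and Eif2b4 by 0.69 ± 0.10. Eif2a, which despite its symbol is not a subunit of eIF2, fell most, by 1.40 ± 0.086. Eif5, the GTPase activator of eIF2, rose by 0.65 ± 0.091 and Eif1a by 0.52 ± 0.12. Termination was also divided, with the release factor gene Etf1 lower by 0.53 ± 0.077 and its partner Gspt1 higher by 0.54 ± 0.077.

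Other mRNAs on the TOP list fell with the ribosomal proteins, 12 of 13 (beside 19.6% of all genes), at a median of -1.52. Tpt1, which encodes the translationally controlled tumour protein, had 204, 200 and 196 CPM of footprints under Rapalink-1, against 1930, 1949 and 1934 CPM under DMSO, and its efficiency fell by 3.42 ± 0.075, or 10.7-fold. Rack1, a signalling protein on the small subunit, had 812, 824 and 868 CPM of footprints under Rapalink-1 and 2616, 2839 and 2866 CPM under DMSO; its RNA rose by 0.45 ± 0.052 and its efficiency fell by 2.18 ± 0.075. The poly(A)-binding proteins Pabpc1 (-2.98 ± 0.26) and Pabpc4 (-1.87 ± 0.087) fell, as did the intermediate filament gene Vim (-1.83 ± 0.077), the nucleolar chaperone gene Npm1 (-1.63 ± 0.066) and Naca and Btf3 of the nascent-chain complex (-1.07 ± 0.075 and -0.93 ± 0.071). Larp1, the TOP-binding protein, was the member not called, at 0.10 ± 0.086, with replicate efficiencies of 1.32, 1.22 and 1.05 under Rapalink-1 and 1.15, 1.15 and 1.00 under DMSO. Its relatives moved apart, Larp4 down by 0.64 ± 0.074 and Larp4b up by 0.79 ± 0.10. Rps6kb1, the gene of S6 kinase 1, rose in efficiency by 0.70 ± 0.11, with 45.8, 46.7 and 48.4 CPM of footprints under Rapalink-1 and 40.1, 39.4 and 37.0 CPM under DMSO, while its RNA fell by 0.43 ± 0.073.

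Outside the translation machinery, several groups that supply or receive new proteins fell as well. Over all genes 19.6% were called lower and 19.4% higher. All 7 tested genes of the CCT chaperonin, which folds tubulin and actin, were lower (6 lower and 1 higher with library totals), most of all Cct2 (-1.60 ± 0.073) and Cct4 (-1.34 ± 0.070). Their substrates fell too, at 13 of 17 tubulin and actin genes and a median of -0.53 (8 of 17 and -0.14 with library totals). Tuba1a, Tuba1b and Tuba1c have near-identical values (-0.62, -0.6 and -0.63) and may share reads. Tubb2b fell by 1.35 ± 0.082, Actg1 by 1.32 ± 0.069 and Tubb3 by 0.81 ± 0.092, while Actb fell by 0.51 ± 0.067. Of 18 genes of the signal recognition particle and translocon, 12 fell and none rose. Srp72 had 83.1, 81.5 and 83.0 CPM of footprints under Rapalink-1 and 202, 184 and 196 CPM under DMSO, and fell by 1.64 ± 0.085; the channel gene Sec61a1 fell by 1.22 ± 0.080. Of 22 synthetase genes 14 fell and none rose. Qars, for glutamine, had 75.3, 78.7 and 71.8 CPM of footprints under Rapalink-1 and 163, 170 and 157 CPM under DMSO, while its RNA rose by 0.62 ± 0.060, and its efficiency fell by 1.73 ± 0.087. With library totals the medians of the translocon and synthetase lists turn positive, -0.34 becoming 0.05 and -0.28 becoming 0.11; 5 translocon genes are then called higher and 3 lower, and 8 synthetase genes higher and 7 lower.

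Genes of nuclear transport, the list of importins, exportins, the GTPase Ran and its exchange factor Rcc1, were uneven: 10 of 25 fell and 5 rose (3 rose without Rapalink-1 replicate 3 or DMSO replicate 3), around a median of -0.10 that becomes 0.30 with library totals, when 6 fell and 13 rose. Ipo7, which imports ribosomal proteins and histones, had 184, 180 and 186 CPM of footprints under Rapalink-1 and 552, 487 and 453 CPM under DMSO, and fell by 1.77 ± 0.082. Ipo5 fell by 1.59 ± 0.074 and Ipo4 by 1.03 ± 0.086, whereas the exporter Xpo1 rose by 0.47 ± 0.10. Among nucleoporins Nup210, a membrane protein of the pore, fell by 1.39 ± 0.10 and Nup153 of the nuclear basket rose by 0.66 ± 0.085. Of 148 solute carriers 24 rose and 24 fell (16.2% each, beside 19.4% higher and 19.6% lower over all genes). With library totals 71 rose and 10 fell, near the shares over all genes under that scaling (5494 of 11475 higher and 829 lower). The mitochondrial ADP/ATP carriers Slc25a4 and Slc25a5 fell by 1.49 ± 0.072 and 1.43 ± 0.071, and the phosphate carrier Slc25a3 by 1.18 ± 0.080; Slc25a5 had 413, 423 and 443 CPM of footprints under Rapalink-1 and 1066, 1085 and 1113 CPM under DMSO. In the polyamine pathway 3 of 9 genes fell and 2 rose, and with library totals 2 fell and 6 rose. Odc1, the first enzyme, had 75.1, 69.3 and 75.7 CPM of footprints under Rapalink-1 and 423, 416 and 412 CPM under DMSO, at an efficiency change of -2.62 ± 0.074. Srm and Sms, which make spermidine and spermine, fell by 0.72 ± 0.084 and 0.50 ± 0.079. The antizyme inhibitor gene Azin1 rose by 0.66 ± 0.098 and Sat1, which acetylates polyamines, by 0.93 ± 0.23.

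**Figure D4:**
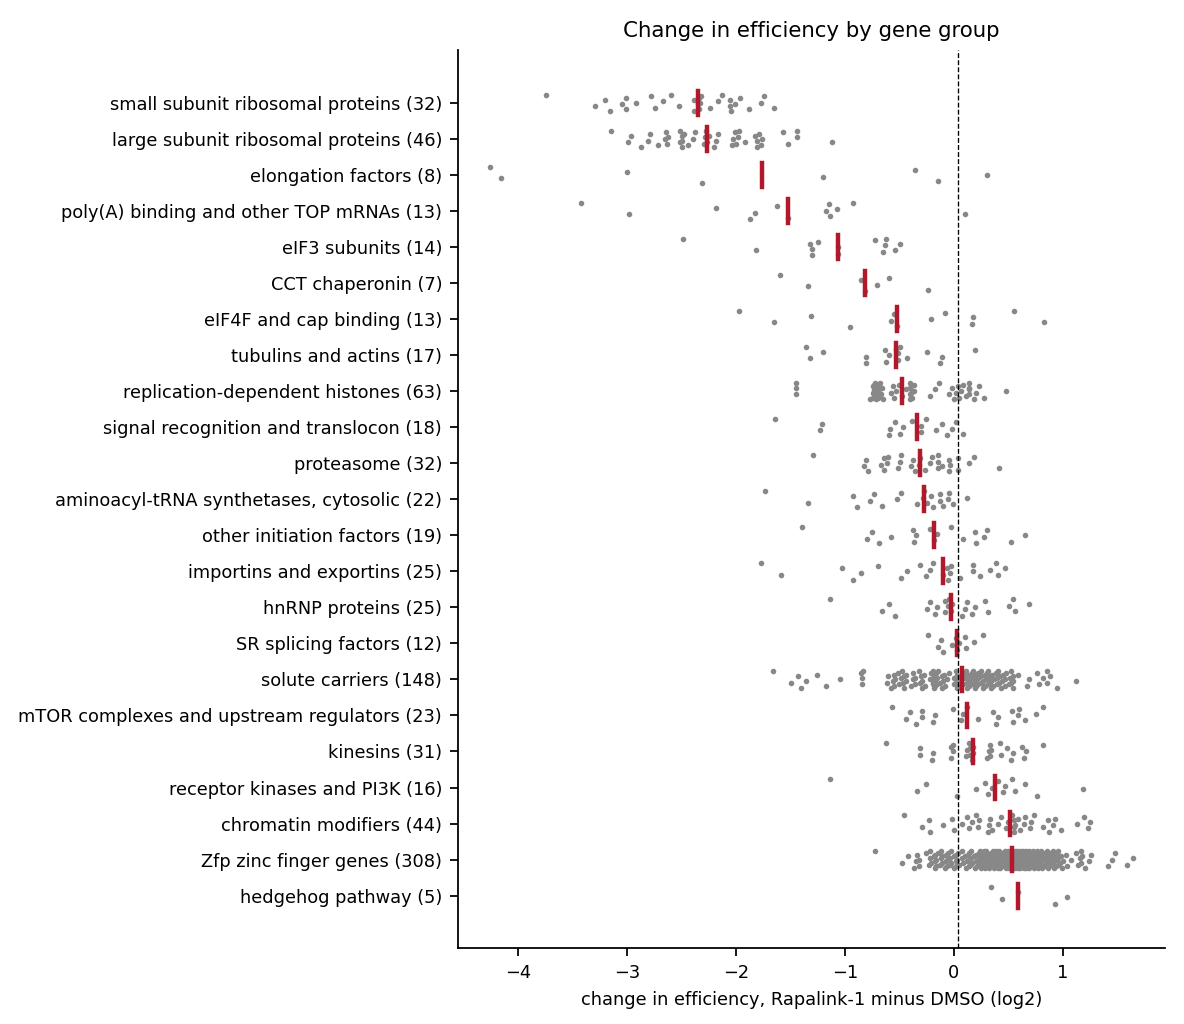
Change in efficiency (x axis, log2, Rapalink-1 minus DMSO) of the tested members of 23 gene groups; grey points are genes, red bars medians, and the number tested is in brackets (Rpl29, without footprints, is left out). The dashed line is the median of all genes, 0.035. Ribosomal protein medians lie near -2.3, and the chromatin modifier and Zfp zinc finger medians near 0.5.

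Among nuclear genes with a symbol, a mean log2 CPM of at least 4 and no overlap between replicates, the largest rises were smaller than the largest falls. Ibtk, an inhibitor of Bruton tyrosine kinase whose mRNA carries upstream open reading frames, rose by 1.87 ± 0.11, or 3.65-fold. Its footprints were 111, 106 and 124 CPM under Rapalink-1 and 37.4, 31.2 and 28.3 CPM under DMSO, and its RNA was 87.3, 87.9 and 86.1 CPM under Rapalink-1 and 92.4, 89.0 and 93.0 CPM under DMSO. Of the 7 tested genes on the list of mRNAs with such upstream frames, 2 (28.6%, beside 19.4% of all genes) were called higher and 0 lower. With library totals 4 were higher and 0 lower. Ppp1r15b rose by 0.41 ± 0.10. Atf4 had -0.22 ± 0.098 and was not called, with RNA and footprints both lower, by 0.91 ± 0.057 and 1.12 ± 0.079 (its efficiency becomes 0.18 with library totals). Cdh11, a cadherin, had 17, 18.7 and 22.8 CPM of footprints under Rapalink-1 and 4.50, 6.12 and 5.73 CPM under DMSO, and its efficiency rose by 1.43 ± 0.18. Gcom1 rose by 1.46 ± 0.15 from few footprints (15.6, 17.8 and 16.0 CPM under Rapalink-1, 6.37, 8.77 and 6.56 CPM under DMSO), and Zmiz1, by 1.44 ± 0.31, with RNA of 1.70, 2.98 and 2.62 CPM under Rapalink-1 and 3.34, 2.89 and 7.59 CPM under DMSO. Ferritin, the iron store whose mRNA is held back by iron regulatory proteins, rose in both chains. Ftl1 had 243, 254 and 231 CPM of footprints under Rapalink-1 and 87.3, 105 and 87.8 CPM under DMSO at an RNA change of 0.07 ± 0.058, so efficiency rose by 1.31 ± 0.085, and Fth1 rose by 0.63 ± 0.13. The regulatory proteins themselves, Aco1 and Ireb2, fell by 0.75 ± 0.090 and 0.55 ± 0.11. The transferrin receptor Tfrc fell in RNA, by 1.18 ± 0.062, and by a further 0.35 ± 0.087 in efficiency, a value that becomes 0.04 with library totals.

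Genes of growth factor signalling rose more often than they fell, and their counts stand beside 19.4% of all genes called higher and 19.6% lower. Of 16 receptor kinase and PI3K genes 9 (56.2%) rose and 1 fell, around a median of 0.38, and without Rapalink-1 replicate 1 the risers number 5. Akt2, a kinase downstream of PI3K, rose by 0.65 ± 0.12 and Irs1 by 0.76 ± 0.16. Irs1, the adaptor of the insulin receptor, had 39.7, 43.3 and 41.2 CPM of footprints under Rapalink-1 and 19.6, 18.9 and 15.8 CPM under DMSO, with RNA higher by 0.42 ± 0.12. Of 23 mTOR genes 9 (39.1%) rose and 3 fell, and the falls number 1 without Rapalink-1 replicate 1, DMSO replicate 2 or DMSO replicate 3; with library totals 14 rose and 0 fell. Rptor, the subunit that gives mTORC1 its substrates, rose by 0.66 ± 0.12, Mapkap1 of mTORC2 by 0.76 ± 0.11 and the activating GTPase Rheb by 0.54 ± 0.099. Mtor fell by 0.29 ± 0.12 (adjusted p = 0.042 in edgeR), which becomes 0.10 with library totals. Mtor also loses its call with DESeq2 and with 5 of the 6 replicates left out in turn, at -0.24 without DMSO replicate 2 and -0.26 without Rapalink-1 replicate 2. Of 11 hedgehog genes only 5 have a row under their symbols, and the others were not analysed here. Of these 5 genes 3 rose: Ptch1, the receptor, by 1.04 ± 0.16, the transcription factor Gli3 by 0.93 ± 0.20 and the co-receptor Cdon by 0.58 ± 0.15. Ccnd1, the cyclin of early G1, fell by 0.69 ± 0.17 in efficiency and by 0.54 ± 0.12 in RNA.

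Of 44 chromatin modifiers, 27 (61.4%, beside 19.4% over all genes) rose and 3 fell, at a median of 0.52; the falls number 1 without Rapalink-1 replicate 3 and 0 with library totals. As a group they held 0.608, 0.596 and 0.611% of footprints in Rapalink-1 replicates and 0.437, 0.419 and 0.388% in DMSO replicates, while their RNA shares overlapped, at 0.362 to 0.383% in Rapalink-1 libraries and 0.374 to 0.389% in DMSO libraries. The histone acetyltransferases Ep300 and Crebbp rose by 1.25 ± 0.17 and 1.19 ± 0.13, the methylcytosine dioxygenase Tet1 by 1.23 ± 0.23, and the trithorax-type protein Kmt2e by 1.13 ± 0.15. Crebbp had 116, 129 and 131 CPM of footprints under Rapalink-1 and 80.7, 75.3 and 69.7 CPM under DMSO. Dnmt1, which copies DNA methylation at replication, fell by 0.46 ± 0.079. Of 308 Zfp zinc finger genes, mostly DNA-binding repressors, 158 (51.3%) rose and 2 fell, with a median footprint change of 0.54 and a median RNA change of 0.06. Some of them have near-identical values, such as Zfp966, Zfp967, Zfp968 and Zfp969 (0.69 to 0.7, SE 0.273 to 0.274). These may share reads, so the counts of Zfp genes may overstate the number of separate measurements. They held 0.687 to 0.711% of Rapalink-1 footprints and 0.424 to 0.449% of DMSO footprints. Zfp62 had 37.5, 34.6 and 33.4 CPM of footprints under Rapalink-1 and 17.7, 17.7 and 15.7 CPM under DMSO, a rise in efficiency of 1.00 ± 0.12. Of 30 mediator genes 5 rose and 5 fell (16.7% each, below the shares over all genes; 3 rose without Rapalink-1 replicate 2), while with library totals 18 rose and 0 fell. Med13 of its kinase module rose by 1.23 ± 0.11.

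At most replication-dependent histone genes, which package new DNA, RNA rose while efficiency fell. Of 63 genes, 43 (68.3%, beside 19.6% of all genes) were called lower in efficiency and 1 higher, at a median of -0.48. RNA was higher at 51, beside 17.5% of all genes, at a median of 0.59, and the median footprint change was 0.13. Histones held 11.6 to 13.5% of footprints in Rapalink-1 libraries and 8.80 to 9.75% in DMSO libraries. In RNA they held 13.4 to 14.4% under Rapalink-1 and 9.39 to 10.5% under DMSO. Many of these genes are near-identical copies that share reads, so the counts overstate the number of separate measurements; the H3 genes Hist2h3b, Hist2h3c1 and Hist2h3c2, for example, all have -1.45 ± 0.096. The number called lower is 27 without Rapalink-1 replicate 1 or DMSO replicate 3. With library totals 13 histone genes are called lower and 19 higher, at a median of -0.08, so the predominance of falls is lost under that scaling.

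All 13 protein genes of the mitochondrial genome, which are translated by ribosomes inside the organelle, had a positive change. Their median was 1.92, and 8 (61.5%, beside 19.4% of all genes) were called higher. The median was 1.03 in footprints and -0.92 in RNA, and the efficiency change of a gene is its footprint change minus its RNA change. RNA was called lower at 3 of the 13, near the 17.3% of all genes with lower RNA. Their footprint share varied within each treatment: 1.01, 1.36 and 1.81% in Rapalink-1 replicates and 0.321, 0.549 and 0.814% in DMSO replicates. Those shares do not overlap, but SEs of efficiency were 0.42 to 0.90. Footprints alone were called higher at 3 of the 13, near the 26.6% of all genes with higher footprints. The number called higher in efficiency is 11 with the replicate number as a block, 10 with treatment and number as a block, and 11 with DESeq2 or with all 18 libraries. With replicates left out it is 10 without DMSO replicate 3, 7 without DMSO replicate 2, 2 without Rapalink-1 replicate 1 or DMSO replicate 1, 1 without Rapalink-1 replicate 2 and 0 without Rapalink-1 replicate 3. mt-Nd2, with the largest value (2.84 ± 0.82), had 228, 315 and 412 CPM of footprints under Rapalink-1 and 91.3, 138 and 258 CPM under DMSO, with overlap.

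The 3 readouts sort genes into classes. Efficiency changed without a called RNA change at 1182 genes that rose (10.3%) and 1195 that fell (10.4%). RNA and footprints moved together with efficiency not called at 653 genes upward (5.69%) and 597 downward (5.20%). Of the upward kind, Sun2, which anchors the nucleus to the cytoskeleton, had RNA higher by 1.38 ± 0.075 and footprints by 1.5 ± 0.075, and the kinase gene Pim1 had 1.46 ± 0.12 and 1.24 ± 0.10. On the downward side were Msmo1 of cholesterol synthesis (RNA -1.45 ± 0.067, footprints -1.62 ± 0.067), the glycolytic regulator Pfkfb3 (-1.42 ± 0.15 and -1.58 ± 0.10) and Tigar (-1.41 ± 0.13 and -1.37 ± 0.11). Footprints fell while RNA rose at 493 genes (4.30%), the class of Eef2, Eef1a1, Tpt1 and Rps18, and the reverse held at 320 genes (2.79%). The RNA rises of Tpt1 (0.14) and Rps18 (0.2) were small and were called with TMM scaling. A further 461 genes (4.02%) had lower RNA and higher efficiency with footprints not called, and 305 genes (2.66%) the opposite. Klhl24, a ubiquitin ligase adaptor, combined a rise in RNA of 2.68 ± 0.079 with a rise in efficiency of 0.69 ± 0.12, so that its footprints were 149, 148 and 153 CPM under Rapalink-1 and 15.7, 13.6 and 13.8 CPM under DMSO. The protocadherin Pcdh8 combined an RNA rise of 3.20 ± 0.15 with an efficiency fall of 1.18 ± 0.23.

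Calls varied with level. In the most abundant decile of genes, by mean log2 CPM over the 12 libraries, 55.4% were called lower and 15.7% higher, at a median of -0.264 (-0.228 without ribosomal proteins). In decile 6 16.2% were lower and 29.1% higher, at a median of 0.076. In the lowest decile 2.09% were lower and 3.05% higher, at a median of 0.13. The gene lists were not matched for level, so the shares over all genes beside them cover genes of all levels.

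**Figure D5:**
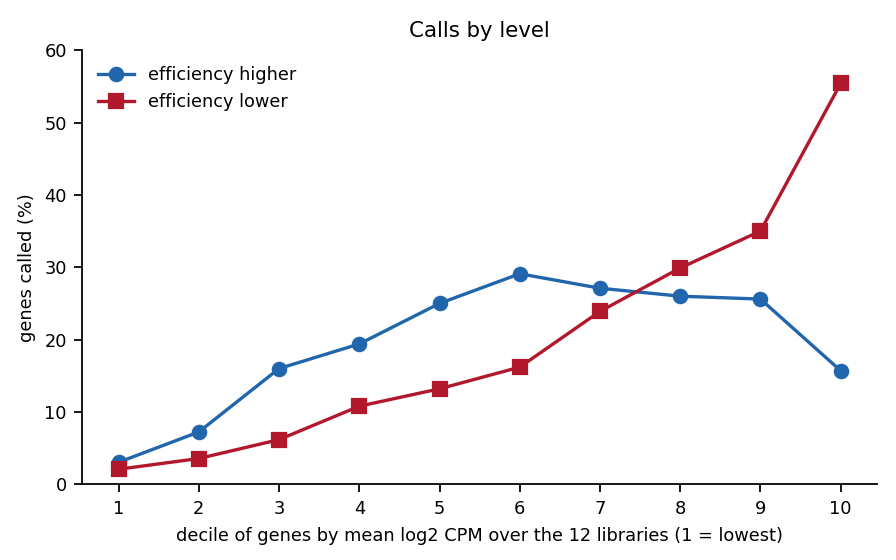
Percentage of genes called higher (blue circles) or lower (red squares) in efficiency under Rapalink-1 against DMSO (y axis), by decile of genes ranked by mean log2 CPM over the 12 libraries (x axis, 1 is lowest). The lower calls reach 55.4% in the top decile, where higher calls stand at 15.7%.

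Cells given 5 nM rapamycin for 3 h share the DMSO libraries, and the doses of the drugs differ. Footprint libraries of Rapalink-1 and DMSO are labelled RP-B and those of rapamycin RP, and what this difference means is not given. A difference between the drugs therefore cannot be told apart from a difference between these libraries. The values are placed side by side without a test of the difference. In a fit of all 18 libraries the median efficiency change was -2.24 under Rapalink-1 and -0.34 under rapamycin for large subunit proteins, and -2.32 under Rapalink-1 and -0.40 under rapamycin for small subunit proteins. eIF3 had -1.04 under Rapalink-1 and -0.19 under rapamycin. Eef2 had -4.24 under Rapalink-1 and -0.89 under rapamycin, Tpt1 had -3.40 under Rapalink-1 and -1.01 under rapamycin, and Odc1 had -2.60 under Rapalink-1 and -0.24 under rapamycin. Chromatin modifiers had a median of 0.54 under Rapalink-1 and -0.48 under rapamycin, and histones -0.46 under Rapalink-1 and 0.50 under rapamycin. Ibtk had 1.89 under Rapalink-1 and 0.07 under rapamycin, and Ftl1 had 1.33 under Rapalink-1 and 0.37 under rapamycin. In the authors' deposited table for Rapalink-1, 4674 of 9876 shared features pass the same threshold, 4352 of them called in the same direction here (93.1% of the authors' calls and 99.4% of the 4377 calls here), and none in the opposite direction; that table gives Eef2 -4.24 and Ibtk 1.89.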

How the data were processed

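Footprint and total RNA libraries were made with the ARTseq kit from lysate and from an aliquot of it, per the labels. The authors deposited whole-number counts per transcript, aligned to mouse build GRCm38 per the submitters' processing notes; which aligner and read counter were used is not given in the sources used here. A table of efficiency that the authors deposited holds log2 changes with adjusted p-values and supplied the gene symbols. Of 27382 transcript rows, 6378 were 0 throughout and rows with the same counts or gene were merged to 15307 features, keeping the row with most reads; features without a symbol held 1.83 to 2.15% of reads. Genes passed edgeR's filter at a minimum count of 10 and a total of 15. edgeR 4.0.16 in R 4.3.3 fitted 1 term for each assay and treatment over 12 libraries with TMM scaling and a robust quasi-likelihood model (biological coefficient of variation 6.49%), and tested footprint change minus RNA change with Benjamini-Hochberg adjustment over 11475 genes. Footprints and RNA were tested in the same fit. A fold is 2 to the power of the log2 change, and replicate efficiencies use a prior count of 0.5. The procedure was tested on simulated data. Alternatives were other scalings, DESeq2 1.42.0, other count filters, other sets of libraries, replicate blocks and each replicate left out.

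The comparison and its gene lists were chosen with earlier results of these data known. Named were the 12 largest falls and rises among called genes of mean log2 CPM of at least 4 whose replicates do not overlap, up to 4 members of each of 41 lists by p, a fixed set of mTOR-related genes, 6 genes called in RNA and footprints but not efficiency, and 6 with opposite calls. Protein length was not analysed here.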

Additional observations from a re-analysis of the deposited data

How the results depend on the processing

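Scaling decided the balance of the comparison. With library totals, efficiency was higher at 5494 genes and lower at 829, footprints were higher at 5445 and lower at 1583, and RNA was higher at 1028 and lower at 3522; the cause was not tested. Under it the efficiency of these named genes changed sign: Atf4 to 0.18, Eif4e to 0.31, Msmo1 to 0.22, Mtor to 0.10, Nes to 0.17, Pfkfb3 to 0.23, Pim1 to 0.17 and Tfrc to 0.04. Under every other alternative the counts of higher and lower efficiency stayed within 1.5 times, at 2306 and 1939 with DESeq2's Wald test, 2466 and 2052 with DESeq2's size factors, and 2407 and 2194 with all 18 libraries. Leaving out each replicate in turn gave 1742 to 2143 genes higher and 1947 to 2123 lower. Without Rapalink-1 replicate 2 the efficiency of Tigar became -0.11, against 0.04 with all replicates, and neither was called. The medians of ribosomal proteins, eIF3, CCT, chromatin modifiers and Zfp genes kept their sign under all alternatives.

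With the replicate number as a block, 2238 genes were higher and 2270 lower, and 4445 of 4508 calls were shared with the 4482 reported; with treatment and number as a block 4509 were called and 4393 shared. Same-numbered footprint libraries of the treatments correlated at 0.200, 0.047 and 0.141 and RNA libraries at 0.012, -0.108 and 0.041, so the numbers do not pair the treatments by a correlation above 0.1 at every number. Footprint and RNA libraries of the same number correlated at -0.006, -0.078 and -0.054 under Rapalink-1 and at 0.165, 0.174 and 0.148 under DMSO, so same-numbered assays deviated together under DMSO and not under Rapalink-1. With 3 replicates a group, no library could be tested as standing apart, and genes of few counts show only large changes.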

Other observations

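Some further gene groups were measured in the same fit. Their counts with library totals stand beside 5494 of 11475 genes higher and 829 lower under that scaling. Of 32 proteasome genes 19 were lower in efficiency under Rapalink-1 and 1 higher, beside 19.6% lower and 19.4% higher over all genes. Those shares are not matched for level, and 55.4% of genes in the most abundant decile were lower. The proteasome median was -0.31, which becomes 0.08 with library totals, when 13 rose and 9 fell. Psmd4, a ubiquitin receptor of the proteasome, fell by 1.30 ± 0.080 (log2, SE), with 123, 132 and 125 CPM of footprints in Rapalink-1 replicates and 285, 295 and 259 CPM in DMSO replicates. Nucleolar proteins of the box C/D and H/ACA particles, which guide modification of ribosomal RNA, were divided: 6 of 13 fell, Ddx21 by 0.91 ± 0.080 and Fbl by 0.46 ± 0.077, and 2 rose, Nop58 among them, by 0.38 ± 0.079; with library totals 2 fell and 7 rose, and the fall of Fbl is no longer called. Of these particles' genes 4 rose without DMSO replicate 2, and 1 rose with each other replicate left out except Rapalink-1 replicate 2. Of 25 hnRNP proteins 5 fell and 6 rose, near the shares over all genes, with Hnrnpa1 lower by 1.14 ± 0.074 and Hnrnpab higher by 0.56 ± 0.068; 3 fell without Rapalink-1 replicate 3, and with library totals 3 fell and 18 rose. Of 12 SR splicing factors 1 rose and 1 fell, and with library totals 11 rose and 0 fell.

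Of 31 kinesins, the motors of microtubules, 11 rose and 3 fell, and of 33 centrosomal Cep genes 9 rose and 5 fell, at medians of 0.17 and 0.19. Their shares were 35.5% and 27.3% higher and 9.68% and 15.2% lower, beside 19.4% higher and 19.6% lower over all genes. The kinesin falls number 1 without Rapalink-1 replicate 2 or 3 or DMSO replicate 1 or 2; with library totals 24 kinesins rose and 1 fell, and 23 Cep genes rose and 1 fell. Of 17 kinases and scaffolds of the DNA damage response 7 rose and 1 fell, with Slx4 higher by 1.01 ± 0.19, Atm by 0.42 ± 0.10 and Brca1 by 0.41 ± 0.095, and Atr lower by 0.46 ± 0.11 (not called with library totals); the number that rose is 3 (without Rapalink-1 replicate 3) to 8 when 1 replicate is left out, and 15 with library totals. Of 13 Notch genes 3 were higher and 3 lower (23.1% each, near the shares over all genes). Without DMSO replicate 1, 1 was higher and 1 lower, and without Rapalink-1 replicate 1, 1 was higher and 2 lower. With library totals 9 Notch genes were higher and 0 lower. Of 68 F-box and Kelch-like genes, which choose substrates for ubiquitin ligases, 18 (26.5%) rose and 5 (7.35%) fell, and with library totals 41 rose and 4 fell. These members were chosen after their values had been seen.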
